A study of Mus musculus with 6 samples.

Results

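The genes that build sterols and fatty acids were examined in mouse hypothalamus, which regulates appetite, temperature and the pituitary. The set was 33 of the 24513 genes with deposited read counts, chosen by name for their place in the pathways. They cover 17 enzymes from acetoacetyl-CoA to cholesterol, 3 genes of sterol control and transport, and 13 genes of fatty acid synthesis, desaturation and elongation. Whole hypothalamus came from 3 NS-DADm and 3 wild-type (WT) C57BL/6 mice, aged 3 to 4 months, with 1 library per mouse. The labels do not spell out the genotype; NS-DADm mice are known to carry mutant deacetylase-activating domains in both NCOR1 and SMRT, nuclear receptor corepressors that use this domain to switch on the deacetylase HDAC3. The labels give no promoter or cell type to which the mutation is restricted, and no treatment. The comparison addresses how transcript levels differ when these domains are mutated.

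Cholesterol and long-chain fatty acids are both made from acetyl-CoA. In the mevalonate pathway, acetyl units are joined into isoprenoids, these into squalene, and squalene is closed into a ring and trimmed to cholesterol. Fatty acid synthesis carboxylates acetyl-CoA to malonyl-CoA, which fatty acid synthase extends to palmitate, and elongases and desaturases then lengthen and unsaturate the chain. Transcription of both routes is driven by SREBP proteins, membrane-bound factors that are released when cell sterols are low. Brain cholesterol does not cross the blood-brain barrier and is made locally, by oligodendrocytes for myelin and by astrocytes and neurons. The values come from bulk tissue, in which fewer cells of a type and less RNA per cell cannot be told apart.

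All 33 genes passed the filter on low counts, with 285 to 77968 reads in a library. Levels are given as normalised read counts scaled to library size (CPM), and, where genes are compared with each other, as CPM per 1000 bases of the longest coding transcript. Of the mean levels per length, that of Scd2, which encodes a stearoyl-CoA desaturase of brain that puts the first double bond into saturated acids, was the highest, with 482 in NS-DADm and 504 in WT mice. Hmgcs1, which encodes the cytosolic HMG-CoA synthase, had 88.5 in NS-DADm and 99.7 in WT mice on this scale. The lowest was Acacb, which encodes the mitochondrial acetyl-CoA carboxylase, with 1.70 in NS-DADm and 1.41 in WT mice.

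**Figure D1:**
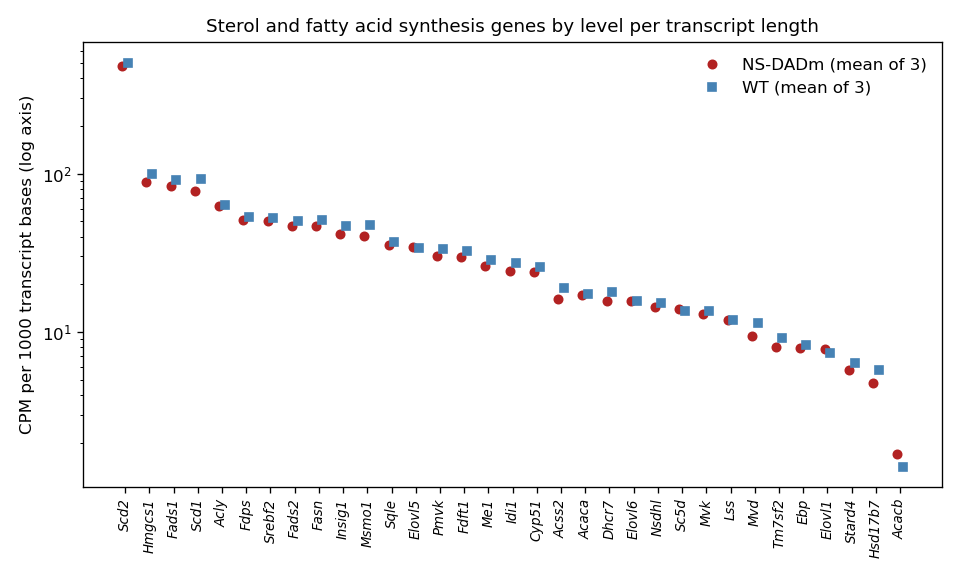
Mean level of each of the 33 genes in CPM per 1000 transcript bases on a log axis, with circles for NS-DADm and squares for WT mice (mean of 3 libraries each), ordered by level. Scd2 stands above the other genes, Acacb is the lowest, and the symbols of both genotypes lie close together for every gene.

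None of the 33 genes passed the threshold of a Benjamini-Hochberg (BH) adjusted p under 0.05 in edgeR, with 0 higher and 0 lower in NS-DADm mice, against 0.0818% higher and 0.573% lower (0.654% in all) of the 15894 genes tested. The fitted differences were small and mostly in the same direction, with 28 of the 33 log2 fold changes below 0 (lower in NS-DADm) and 5 above. Among all genes tested, 48.4% were below 0. The median log2 fold change of the 33 genes was -0.11, a level 7.11% lower in NS-DADm mice, beside a median of 0.0040 over all genes tested. At an unadjusted p under 0.05, 13 of the 33 genes were lower and 1 was higher, against 6.46% lower and 4.4% higher among all genes tested. DESeq2 called 1 of the 33, Msmo1, and limma voom 0. Over all genes, DESeq2 called 282 and limma voom 86, against 104 in edgeR. In 9 genes all 3 NS-DADm libraries lay below all 3 WT libraries, and in 0 genes all lay above, against 8.93% and 7.86% of all genes tested.

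**Figure D2:**
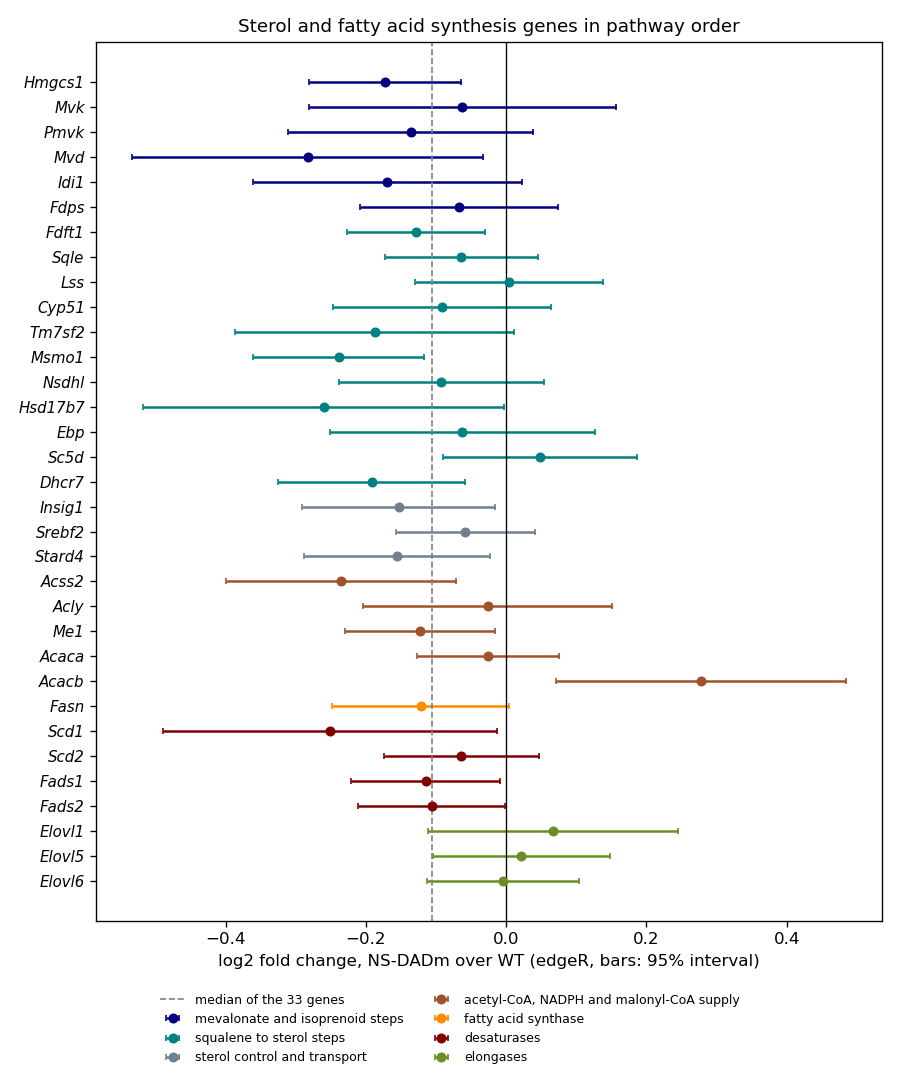
Fitted log2 fold change of NS-DADm over WT for the 33 genes in pathway order, with bars for the 95% interval and colours for the steps. Most points lie left of 0, the dashed median is at -0.11, and Acacb is the farthest to the right at 0.28.

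The count at an unadjusted p under 0.05 fell most when NS-DADm 2 was left out. Calls over all genes tested fell too, from 104 to 5 without NS-DADm 2, 8 without NS-DADm 3 and 10 without WT 3. They numbered 106 without NS-DADm 1, 262 without WT 2 and 312 without WT 1, so the fall was not particular to the 33 genes. NS-DADm 2 held the lowest value of the 6 libraries in 22 of the 33 genes, among them 17 of the 20 sterol genes, whereas NS-DADm 1 and NS-DADm 3 held the lowest value in 3 genes each. Highest values were in WT 3 for 14 genes and in WT 1 for 12. Without NS-DADm 2, 26 of the 33 log2 fold changes were below 0, their median was -0.065, and 3 genes, Hmgcs1, Msmo1 and Dhcr7, were lower at an unadjusted p under 0.05, whereas 7 to 14 were lower when any other library was left out. Genes without overlap, lower in NS-DADm, numbered 9 without this library and 12 to 15 without any other, in comparisons of 2 with 3 libraries. Groups of 2 and 3 lie apart more readily than 3 and 3, so these counts cannot be read beside the full-table share. For the counts of lowest values, small p-values and non-overlap in this paragraph, shares over all genes tested are not given. NS-DADm 2 also held the most RNA of anterior pituitary markers, 9 genes that summed to 202, 2019.8 and 199 CPM in NS-DADm 1, 2 and 3, against 39.7, 54.8 and 111 CPM in WT 1, 2 and 3. The part of pituitary tissue in the values of the 33 genes was not tested.

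Sterol synthesis begins with 6 enzymes that convert acetyl units to farnesyl diphosphate, and all 6 had fitted log2 fold changes below 0. Hmgcs1 (chromosome 13, 119690379 to 119708260, plus strand), which joins acetoacetyl-CoA and acetyl-CoA to HMG-CoA, measured 310.1, 292 and 317 CPM in NS-DADm 1, 2 and 3, against 342, 334 and 360.2 CPM in WT 1, 2 and 3. All NS-DADm libraries were below all WT libraries, by less than the adjusted threshold asks (log2 fold change -0.17 ± 0.05 SE, with a BH adjusted p of 0.18 in edgeR). The 95% interval of this log2 fold change was -0.28 to -0.064. Mvd, the decarboxylase that yields isopentenyl diphosphate, had 19.8, 13.5 and 16.4 CPM in NS-DADm 1, 2 and 3, against 20.6, 20.1 and 19.8 CPM in WT 1, 2 and 3. NS-DADm 1 lay within the WT range there, and NS-DADm 2 and 3 below it (log2 fold change -0.28 ± 0.11 SE, with a BH adjusted p of 0.4 in edgeR). The kinases Mvk and Pmvk, which phosphorylate mevalonate and its phosphate, the isomerase gene Idi1 and the farnesyl diphosphate synthase gene Fdps overlapped between the groups. Their log2 fold changes were -0.062, -0.14, -0.17 and -0.067, with unadjusted p-values of 0.55, 0.12, 0.078 and 0.32 in edgeR.

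Of the 11 genes from squalene to cholesterol, 9 had fitted log2 fold changes below 0 and 3 had groups without overlap. Msmo1 (chromosome 8, 64718139 to 64733792, minus strand), the oxidase that removes the methyl groups at carbon 4 of the sterol ring, had the smallest p of the 33 genes. It measured 83.6, 77.8 and 85.9 CPM in NS-DADm 1, 2 and 3, against 92.5, 97.1 and 102 CPM in WT 1, 2 and 3. Each NS-DADm library lay below each WT library, with means of 82.4 ± 4.21 CPM for NS-DADm mice, against 97.3 ± 4.88 CPM for WT mice (SD, n = 3 each), and the level was 15.3% lower in NS-DADm mice (log2 fold change -0.24 ± 0.056 SE, with a BH adjusted p of 0.084 in edgeR). Of 16 alternatives in processing, 4 brought Msmo1 past the threshold, and its adjusted p ranged from 0.0073 to 0.61 among them. Dhcr7 (chromosome 7, 143823145 to 143848410, plus strand), the reductase of the last step to cholesterol, measured 45.7, 42.9 and 43.7 CPM in NS-DADm 1, 2 and 3, against 47.9, 49.1 and 54.1 CPM in WT 1, 2 and 3. Its groups did not overlap either (log2 fold change -0.19 ± 0.062 SE, with a BH adjusted p of 0.24 in edgeR). Fdft1, squalene synthase, the first enzyme committed to sterols, measured 110.0, 108 and 113 CPM in NS-DADm 1, 2 and 3, against 119.7, 121 and 121 CPM in WT 1, 2 and 3. This gene varied little within a group and its groups were apart (log2 fold change -0.13 ± 0.046 SE, with a BH adjusted p of 0.3 in edgeR).

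The Fdft1 value is uncertain, because 774 bases of its longest coding transcript (20.9%) overlap exons of Ctsb, which encodes the protease cathepsin B, on the opposite strand, and the strand setting of the counting is not given in the sources used here. Ctsb had a log2 fold change of 0.037 (edgeR, BH adjusted p = 0.84). Similarly, 557 bases of Hmgcs1 (16.1%) overlap an antisense transcript, Gm48342. In all, 10 of the 33 genes share exon bases with another gene. Smaller overlaps on the opposite strand are those of Idi1 (10.7%), Lss (8.16%), Cyp51 (4.22%), Acss2 (3.86%) and Elovl1 (2.93%). The closest other transcript, over at least 200 aligned bases, was a processed pseudogene with more than 95% identity for 6 of the 33 genes. These were Acaca, Elovl6, Fdft1, Fdps, Idi1 and Me1, and pseudogenes that were not the closest match were not counted. Reads that aligned to more than 1 place were not assigned to a gene. Fdps also shares 1124 bases (81.3%) with Gm43738, annotated on the same strand.

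The other sterol enzymes differed less or varied more within a group. Hsd17b7, which reduces the ketone left after demethylation, measured 24.3, 20.6 and 21.4 CPM in NS-DADm 1, 2 and 3, against 28.3, 21.4 and 29.5 CPM in WT 1, 2 and 3. WT 2 lay at the level of NS-DADm 3, and NS-DADm 1 above it, so the groups overlapped (log2 fold change -0.26 ± 0.12 SE, with a BH adjusted p of 0.46 in edgeR). The monooxygenase Sqle, the demethylase Cyp51, the reductase Tm7sf2, the dehydrogenase Nsdhl and the isomerase Ebp had log2 fold changes of -0.064, -0.091, -0.19, -0.092 and -0.062, all with overlap between the groups. Lss, the cyclase that closes the ring, and the desaturase Sc5d were at 0.0042 and 0.049, with 95% intervals of -0.13 to 0.14 and -0.089 to 0.19.

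Genes of sterol control and transport lay in the same range. Insig1, which holds SREBP in the endoplasmic reticulum when sterols are plentiful and is itself an SREBP target, measured 121, 106 and 112 CPM in NS-DADm 1, 2 and 3, against 127, 116 and 134 CPM in WT 1, 2 and 3. NS-DADm 1 was above WT 2, so the groups overlapped (log2 fold change -0.15 ± 0.064 SE, with a BH adjusted p of 0.4 in edgeR). Stard4, a carrier of cholesterol between membranes, measured 29.6, 28.4 and 29.4 CPM in NS-DADm 1, 2 and 3, against 34.0, 32.3 and 31.0 CPM in WT 1, 2 and 3. Its groups did not overlap (log2 fold change -0.16 ± 0.061 SE, with a BH adjusted p of 0.36 in edgeR). Srebf2, which encodes the SREBP form that drives sterol genes, measured 247, 257 and 264 CPM in NS-DADm 1, 2 and 3, against 269, 269 and 262 CPM in WT 1, 2 and 3, and NS-DADm 3 was above WT 3 (log2 fold change -0.058 ± 0.046 SE, with a BH adjusted p of 0.72 in edgeR).

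**Figure D3:**
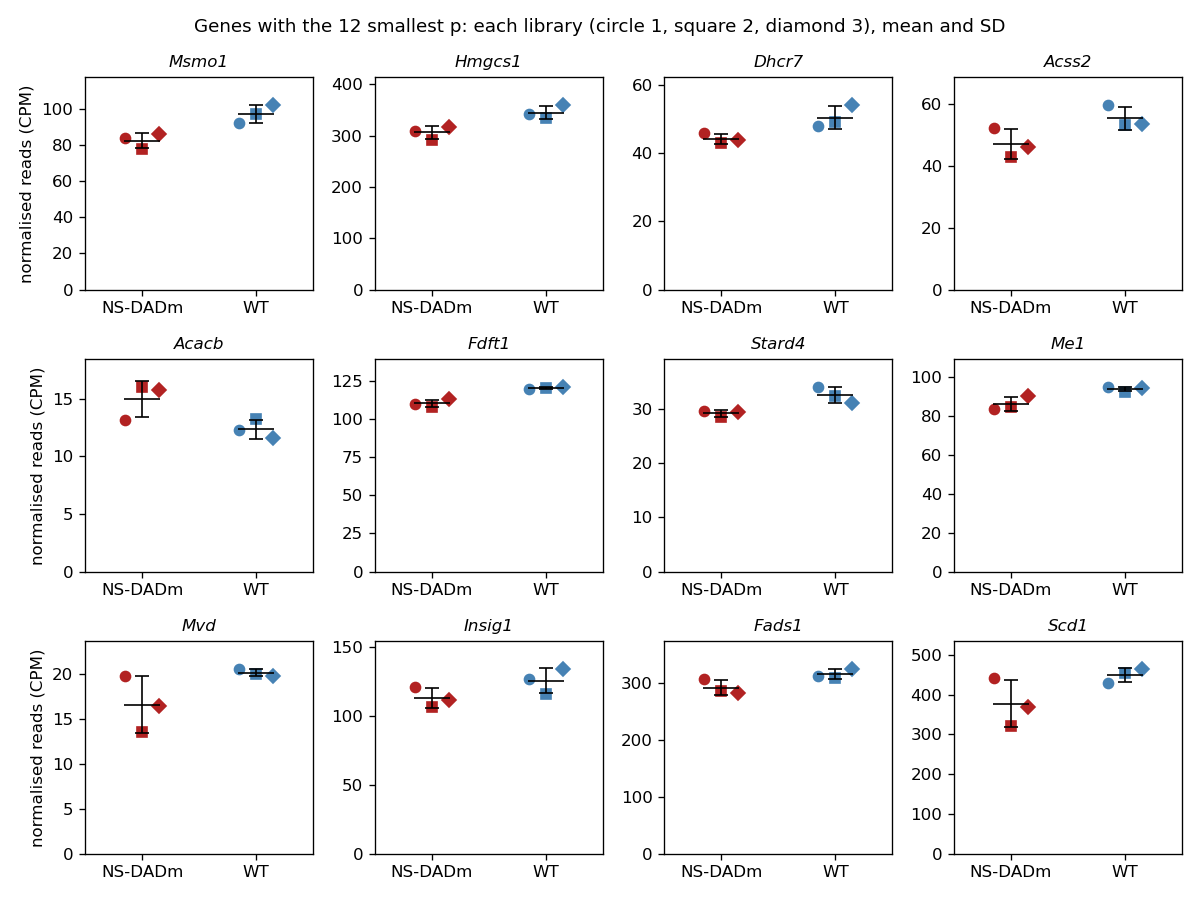
Normalised reads (CPM) in each library for the genes with the 12 smallest p, NS-DADm left of WT, with the mean and SD of 3 libraries; circles, squares and diamonds are libraries 1, 2 and 3. Acacb alone of these 12 is higher in NS-DADm, and the NS-DADm 2 square is the lowest point in most of the other panels.

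SREBP binds the sterol response element beside sites for NF-Y and SP1, so the bases upstream of the annotated starts were searched on both strands for TCACNCCAC (a form of that element), CCAAT (NF-Y) and GGGCGG (a GC box of SP1). The RefSeq promoter table (GRCm38.p6) matched 26 of the 33 genes, with 31 start sites. CCAAT was found in the 250 bases before 22 of the 31 starts (71%), against 33.8% of all 32851 starts, and GGGCGG in 22 of 31 (71%), against 32.7%. TCACNCCAC was found once, upstream of Hmgcs1, which is 3.23% of the starts against 1.05% of all. These matches describe the letters and are no evidence of binding. The upstream windows of Hmgcs1 (chr13:119690101-119690350, plus strand), Mvd (chr8:122443423-122443672, minus strand) and Fasn (chr11:120824548-120824797, minus strand) are shown because they stand for the head of the sterol route, a later step of it and the fatty acid route, and hold no annotated exon. Capitals mark matches of any of the 3 motifs on either strand, and overlapping matches run together.
Hmgcs1: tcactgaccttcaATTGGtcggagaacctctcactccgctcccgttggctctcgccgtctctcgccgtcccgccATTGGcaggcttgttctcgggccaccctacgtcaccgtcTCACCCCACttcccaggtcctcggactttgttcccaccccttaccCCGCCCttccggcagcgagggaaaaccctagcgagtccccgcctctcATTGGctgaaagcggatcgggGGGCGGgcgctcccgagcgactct
Mvd: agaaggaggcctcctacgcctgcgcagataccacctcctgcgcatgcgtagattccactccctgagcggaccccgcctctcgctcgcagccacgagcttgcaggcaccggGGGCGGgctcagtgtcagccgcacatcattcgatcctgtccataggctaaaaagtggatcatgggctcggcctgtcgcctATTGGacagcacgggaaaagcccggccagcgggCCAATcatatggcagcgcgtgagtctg
Fasn: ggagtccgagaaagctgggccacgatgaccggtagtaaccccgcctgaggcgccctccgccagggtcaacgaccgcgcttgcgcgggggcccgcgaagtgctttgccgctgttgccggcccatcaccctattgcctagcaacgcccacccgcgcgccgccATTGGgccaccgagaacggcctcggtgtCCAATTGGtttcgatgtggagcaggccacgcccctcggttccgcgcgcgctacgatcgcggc
The Hmgcs1 window holds the sterol response element with 3 CCAAT and 2 GGGCGG matches, the Mvd window 2 CCAAT and 1 GGGCGG, and the Fasn window 3 CCAAT, of which 2 overlap.

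Supply of carbon and reducing power for fatty acids was described by 5 genes, of which 4 had fitted log2 fold changes below 0. Acss2, which makes acetyl-CoA from acetate, measured 52.3, 42.9 and 46.3 CPM in NS-DADm 1, 2 and 3, against 59.8, 53.1 and 53.6 CPM in WT 1, 2 and 3. Groups were apart by a narrow margin, with NS-DADm 1 just under WT 2 (log2 fold change -0.24 ± 0.076 SE, with a BH adjusted p of 0.24 in edgeR). Me1, malic enzyme, a source of NADPH, measured 83.7, 85.0 and 90.3 CPM in NS-DADm 1, 2 and 3, against 95.1, 92.7 and 94.3 CPM in WT 1, 2 and 3, again without overlap (log2 fold change -0.12 ± 0.049 SE, with a BH adjusted p of 0.38 in edgeR). Acly, which splits citrate to acetyl-CoA, measured 305, 253 and 273 CPM in NS-DADm 1, 2 and 3, against 313, 269 and 264 CPM in WT 1, 2 and 3. Libraries numbered 1 were the highest of each group, and the groups overlapped (log2 fold change -0.026 ± 0.08 SE, with a BH adjusted p of 0.95 in edgeR). Acaca, the cytosolic carboxylase that makes malonyl-CoA for synthesis, had a log2 fold change of -0.026 with a 95% interval of -0.13 to 0.075.

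Acacb was the 1 gene of the 33 that was higher in NS-DADm mice at an unadjusted p under 0.05. Its malonyl-CoA is known to restrain entry of fatty acids into mitochondria rather than to feed synthesis. It measured 13.2, 16.0 and 15.7 CPM in NS-DADm 1, 2 and 3, against 12.3, 13.2 and 11.6 CPM in WT 1, 2 and 3. NS-DADm 1 lay just below WT 2, so the groups overlapped (log2 fold change 0.28 ± 0.10 SE, with a BH adjusted p of 0.28 in edgeR). The log2 fold change stayed above 0 in all 16 alternatives, from 0.0090 to 0.38, and passed the threshold in none of them. Fasn, fatty acid synthase, measured 496, 429.8 and 477 CPM in NS-DADm 1, 2 and 3, against 536, 503 and 488 CPM in WT 1, 2 and 3. NS-DADm 1 was above WT 3, and the difference did not pass (log2 fold change -0.12 ± 0.058 SE, with a BH adjusted p of 0.48 in edgeR).

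All 4 desaturase genes had fitted log2 fold changes below 0. Scd1, the stearoyl-CoA desaturase also known from liver and fat, measured 441, 322 and 368 CPM in NS-DADm 1, 2 and 3, against 429, 453 and 464 CPM in WT 1, 2 and 3. NS-DADm 2 and 3 lay below every WT library and NS-DADm 1 within the WT range (log2 fold change -0.25 ± 0.10 SE, with a BH adjusted p of 0.43 in edgeR). Without NS-DADm 1 it passed the threshold, with a log2 fold change of -0.38 (edgeR, BH adjusted p = 0.028). Scd2 supplied 39.2 to 43.5% of the reads of the 33 genes in a library and measured 2543, 2629.9 and 2712 CPM in NS-DADm 1, 2 and 3, against 2547, 2848 and 2846 CPM in WT 1, 2 and 3. NS-DADm 1 and WT 1 were nearly level, and both were below the other libraries (log2 fold change -0.064 ± 0.051 SE, with a BH adjusted p of 0.72 in edgeR). The transcripts of Scd1 and Scd2 share 88% identity over 1195 bases, so a part of their reads may have been left out as not unique.

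Fads1 and Fads2 encode the desaturases that put further double bonds into polyunsaturated fatty acids, and both had groups without overlap. Fads1 measured 306, 286 and 281 CPM in NS-DADm 1, 2 and 3, against 312, 309 and 324 CPM in WT 1, 2 and 3 (log2 fold change -0.11 ± 0.049 SE, with a BH adjusted p of 0.41 in edgeR). Fads2 measured 154, 144 and 144 CPM in NS-DADm 1, 2 and 3, against 156, 164 and 157 CPM in WT 1, 2 and 3 (log2 fold change -0.11 ± 0.048 SE, with a BH adjusted p of 0.45 in edgeR). In both, NS-DADm 1 was just under the lowest WT library. The 3 elongases showed no such shift. Elovl5, which extends polyunsaturated chains, measured 95.5, 100.4 and 93.4 CPM in NS-DADm 1, 2 and 3, against 87.4, 98.9 and 98.9 CPM in WT 1, 2 and 3, with WT 1 the lowest of all (log2 fold change 0.022 ± 0.058 SE, with a BH adjusted p of 0.94 in edgeR). Elovl1, for very long chains, and Elovl6, which extends palmitate, had log2 fold changes of 0.067 and -0.0042, with 95% intervals of -0.11 to 0.25 and -0.11 to 0.10.

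Across the 33 genes, the 95% intervals give the differences that these libraries allow. The lowest bound was a level 30.9% lower in NS-DADm mice, for Mvd, and the highest a level 39.9% higher, for Acacb. In 27 genes the fitted log2 fold change was within 0.2 of 0 (81.8%), against 82.8% of all genes tested and 94.3% of the 9822 whose mean level was in the range of these genes. A p that misses the threshold does not show that the genotypes are alike.

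Summed over genes, the 20 sterol genes measured 1587, 1475 and 1594 CPM in NS-DADm 1, 2 and 3, against 1690.4, 1636 and 1732 CPM in WT 1, 2 and 3. All NS-DADm libraries were below all WT libraries, and NS-DADm 2 was the lowest. The 13 fatty acid genes summed to 4763, 4575 and 4774 CPM in NS-DADm 1, 2 and 3, against 4812, 5082 and 5079.8 CPM in WT 1, 2 and 3, a sum in which Scd2 takes the largest part and in which the groups also stood apart, NS-DADm 3 just below WT 1. Sterol genes had a median log2 fold change of -0.13, with 18 of 20 below 0 and 8 lower at an unadjusted p under 0.05, and fatty acid genes of -0.064, with 10 of 13 below 0 and 5 lower and 1 higher at that level. The difference between both sets was not tested.

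Other genes of the same pathways, 49 in all, were spread evenly around 0. Of 24 further genes of sterol synthesis, control and uptake, 11 had log2 fold changes above 0 and 13 below, with a median of -0.0060. None was called, and 2 were higher and 1 lower at an unadjusted p under 0.05. The smallest p-values there were those of Cyp46a1, the enzyme that clears cholesterol from neurons (log2 fold change -0.17 ± 0.071 SE), of the lipoprotein receptor gene Lrp1 (0.12 ± 0.056 SE) and of Srebf1, whose SREBP form favours fatty acid genes (0.10 ± 0.047 SE). Srebf1 measured 126, 129 and 129 CPM in NS-DADm 1, 2 and 3, against 121, 122 and 115 CPM in WT 1, 2 and 3, with all NS-DADm libraries above all WT libraries (edgeR, BH adjusted p = 0.46). Of 25 further genes of fatty acid synthesis, elongation and activation, 13 were above 0 and 12 below, with a median of 0.0022. Again none was called, and 2 were higher and 2 lower at an unadjusted p under 0.05. DESeq2 and limma voom called none of the 49. Acsl4 and Acsl3, which activate long-chain fatty acids with coenzyme A, had log2 fold changes of -0.18 and -0.13, both without overlap between the groups, and the elongase gene Elovl2 had 0.30 (edgeR, BH adjusted p = 0.22, 0.34 and 0.39).

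Markers of the cells that make brain lipid were measured beside these genes. Of 15 markers of mature oligodendrocytes, 13 had log2 fold changes below 0 and 1 was called lower, Ugt8a, with a median of -0.19. At an unadjusted p under 0.05, 11 were lower and 2 higher, and 8 were lower without overlap between the groups. They summed to 5763, 6045 and 5244 CPM in NS-DADm 1, 2 and 3, against 6136, 6366 and 5909.5 CPM in WT 1, 2 and 3, and the library lowest in them was NS-DADm 3. Of 10 astrocyte markers 7 were below 0, 4 were lower at an unadjusted p under 0.05 and none was called, with sums of 4438 to 4645 CPM in NS-DADm and 4468 to 4715 CPM in WT libraries. Of 8 neuronal markers 6 were below 0, 3 were lower at an unadjusted p under 0.05 and none was called, with sums of 5367 to 5477 CPM in NS-DADm and 5601 to 5807 CPM in WT libraries, which do not overlap. The part of oligodendrocytes, astrocytes and neurons in the values of the 33 genes was not tested by these counts and sums. Adipocyte markers, 4 in number, summed to only 0.114 to 0.217 CPM in NS-DADm and 0.11 to 0.402 CPM in WT libraries. The 9 hypothalamus markers summed to 519 to 644 CPM in NS-DADm and 534 to 582 CPM in WT libraries, so the labelled tissue was present in each library. Of the tested markers of oligodendrocyte precursors (6), microglia (9), endothelium (6), choroid plexus (3) and ependyma (5), none was called in edgeR, and at an unadjusted p under 0.05 1, 3 and 2 markers of the first 3 lists were lower and 2 and 1 of the others were higher.

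Thalamus borders the hypothalamus. The 13 thalamus markers were chosen with earlier results of these data known, so their shared direction describes only the list. All 13 had log2 fold changes below 0, and 5 were called lower (Lef1, Plekhg1, Rgs16, Slitrk6 and Plcb4). They summed to 392, 351 and 391 CPM in NS-DADm 1, 2 and 3, against 923, 579 and 755 CPM in WT 1, 2 and 3. With the mean of these markers as a covariate, the median log2 fold change of the 33 genes was 0.0090, 15 were below 0, and at an unadjusted p under 0.05 Scd2 was lower and Mvk and Acly were higher. In that fit the log2 fold changes of Msmo1 and Dhcr7 were -0.24 and -0.17, that of Hmgcs1 was -0.059 against -0.17 without the covariate, and those of Acss2, Mvd, Insig1, Hsd17b7 and Fasn were above 0. With the mean of the mature oligodendrocyte markers as a covariate the median was -0.18, and 29 of the 33 were below 0. Both covariates differ between the genotypes, so marker level and genotype cannot be fully told apart.

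**Figure D4:**
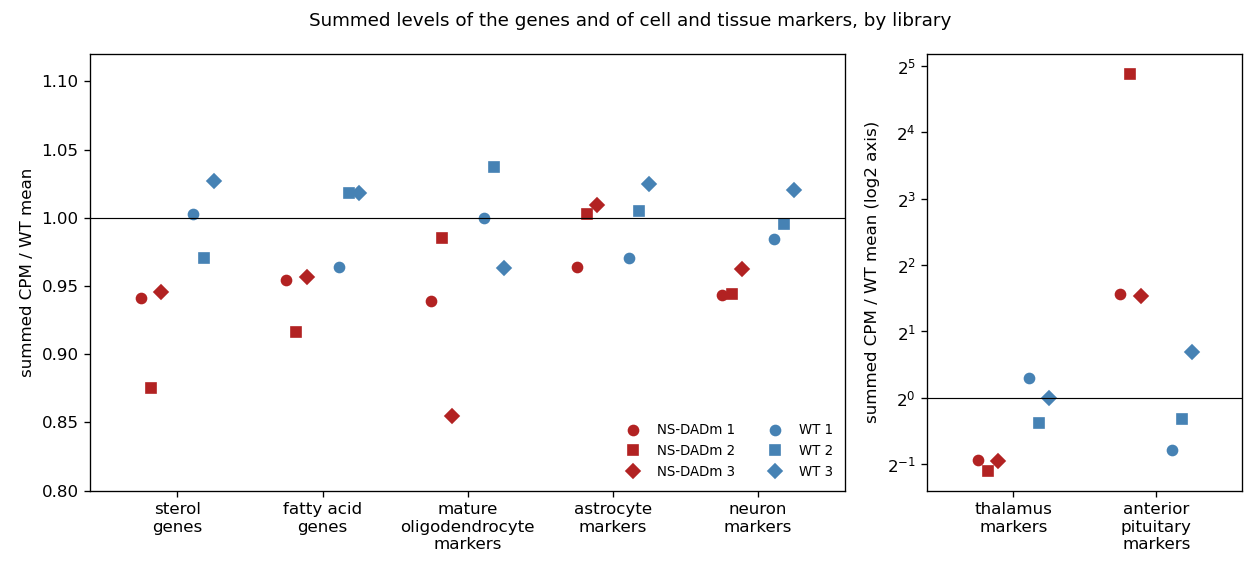
Summed CPM of each gene set in each library, divided by the WT mean, NS-DADm left of WT; the left axis is linear and does not start at 0, and the right axis is log2. NS-DADm 2 is the lowest library for sterol and fatty acid genes and the highest for anterior pituitary markers, and thalamus markers are lower in all NS-DADm libraries.

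**Figure D5:**
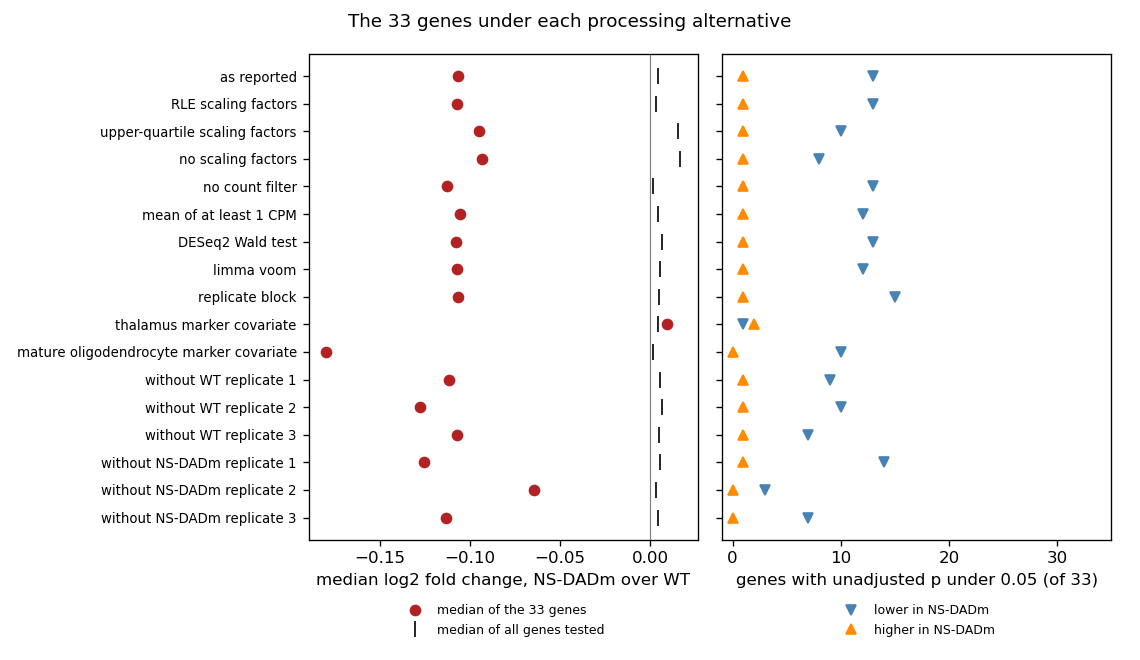
Median log2 fold change of the 33 genes (circles) and of all genes tested (ticks), and the number of the 33 genes with an unadjusted p under 0.05 in each direction, for the reported fit and 16 alternatives. The median moves to 0.0090 with the thalamus marker covariate and to -0.065 without NS-DADm 2.

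The libraries held 24173076 to 27606309 reads on genes, and no pair within a group agreed within counting noise, so each was kept as a separate sample. Over all genes, 104 of 15894 were called, 13 higher and 91 lower in NS-DADm mice. With 3 mice a group, an exact permutation test of a single value cannot go below a two-sided p of 0.10.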

How the data were processed

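RNA of whole hypothalamus was sequenced in 3 NS-DADm and 3 WT mice. Each library has a deposited table of raw read counts by gene symbol. Reads were aligned with TopHat2 2.0.9 to mm10 and counted with HTSeq, per the submitters' processing notes; HTSeq's version, annotation and strand setting were not given in the sources used here. Of 24518 rows, 5 were classes of unassigned reads and were left out of all fits; of all entries, 13.3 to 14.8% fell outside genes, 1.00 to 1.06% were ambiguous and 14.3 to 16.5% aligned to more than 1 place.

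After filterByExpr, 15894 genes remained and were fitted together in edgeR 4.0.16 (R 4.3.3), using TMM factors (0.992 to 1.01), the robust quasi-likelihood F test without covariates, and BH adjustment. Each SE is the log2 fold change over the root of F, and gives the 95% interval. The fitting code was tested on simulated data. Alternatives were other scaling, other filters, DESeq2 1.42.0, limma 3.58.1 (voom), a replicate block, 2 marker covariates and leaving out each library. The genes and lists were chosen with earlier results of these data known, so lists are described by counts and medians only. Values per library are given for the genes with the 12 smallest p, the most abundant of each step, and those without overlap; Hsd17b7, outside this rule, was added after its values were seen. Of the further pathway genes, 3 per list with the smallest p are named. Positions and transcript lengths are from GENCODE (GRCm38), similar transcripts from BLAST 2.17.0 and figures from matplotlib 3.10.9.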

Additional observations from a re-analysis of the deposited data

How the results depend on the processing

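No other scaling or filter changed the direction of the median of the 33 genes, which was -0.095 with upper-quartile factors, -0.093 with no factors and -0.13 to -0.065 with 1 library left out; it turned to 0.0090 with the thalamus marker covariate and was -0.18 with the mature oligodendrocyte marker covariate. The cause of these shifts was not tested. The count of the 33 genes called lower was 0 as reported, 1 with no count filter and 1 with DESeq2 (Msmo1 in both), and 0 to 1 with 1 library left out: Msmo1 without WT 1, Hsd17b7 without WT 2 and Scd1 without NS-DADm 1. Groups lay apart in the higher direction for 1 gene with no scaling factors and 0 to 1 with a library left out, and in the lower direction for 6 with no scaling factors and 9 to 15 with a library left out. The counts with a library left out come from comparisons of 2 with 3 libraries, in which groups lie apart more readily. Further pathway genes called lower were 0 to 1 with a library left out. Over all genes, calls higher and lower were 31 and 172 with no count filter, 50 and 232 with DESeq2, 8 and 3 with the thalamus covariate, 3 and 0 with the oligodendrocyte covariate, and 1 to 102 and 4 to 243 with a library left out; calls lower were 60 with no scaling factors. With the thalamus covariate log2 fold changes turned to 0.091 for Acss2, 0.0026 for Mvd, 0.12 for Insig1, 0.34 for Acly, 0.081 for Fasn and -0.23 for Elovl5. With a library left out, Acly ranged from -0.099 to 0.058 and Elovl5 from -0.032 to 0.051.

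Whether the shared replicate numbers pair the mice was not settled by correlation. Deviations from the group means correlated at 0.18, 0.11 and -0.024 for numbers 1, 2 and 3. Between unlike numbers they correlated at -0.16 to 0.085, and 4 of 6 libraries correlated best with their own number. With a replicate block, 77 genes were called higher and 332 lower, among them 3 of the 33 (Msmo1, Hmgcs1 and Acss2, with log2 fold changes of -0.24, -0.17 and -0.24) and 1 further pathway gene.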
